A study of Rattus norvegicus with 30 samples.

Results

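The genes of cholesterol and fatty acid synthesis and their SREBP regulators were examined in CD31+ cells of the rat lung. The set holds 28 gene names, listed by their known roles. It comprises 18 enzymes of sterol synthesis, 6 regulators and sterol carriers, and 4 enzymes of fatty acid synthesis. All 28 names were found among the 30562 rows of the table, in 29 rows, since Cyp51 has a second row with few counts (ENSRNOG00000065555). All 29 are among the 16171 rows that passed the filter on low counts.

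The cells came from wild-type rats 3 weeks after a sham operation or a Glenn operation, and were pulled out with CD31 magnetic beads, CD31 being an adhesion molecule on endothelium. The Glenn operation joins a caval vein to the pulmonary artery, which feeds the lung with blood of the upper body and none directly from the hepatic veins. Animals of each surgery ate a control diet, a diet deficient in vitamin A or a diet with excess vitamin A, which gives 6 groups of 5 libraries: sham control, Glenn control, sham deficient, Glenn deficient, sham excess and Glenn excess. Strain, age and sex are not given in the sources used here, nor is whether each library came from a separate animal, so p-values measure the spread between these libraries.

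Cholesterol is made from acetyl-CoA through mevalonate, squalene and lanosterol. Its genes are switched on by SREBP2, the product of Srebf2, while SREBP1, the product of Srebf1, mainly drives fatty acid synthesis. Both are held in the endoplasmic reticulum by SCAP and the INSIG proteins when sterols are plentiful, and are cut and sent to the nucleus when sterols run low. In the lung, type 2 alveolar cells make surfactant, a mixture of lipids and proteins, and are known for high lipid synthesis.

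Promoter windows of RefSeq (rat assembly GRCr8), running from 250 bases before to 50 after each gene's start, were at hand for 21 of the 28 genes, in 22 windows of 300 bases, since Srebf1 has 2 starts. No window was at hand for Acaca, Elovl6, Fasn, Fdft1, Pmvk, Sqle or Stard4, so Scd is the only enzyme of fatty acid synthesis with a window. The 6 windows below belong to genes whose levels the results turn on. Capitals mark the inverted CCAAT box (ATTGG), the SP1 site (GGGCGG) and a short form of the sterol regulatory element (CACNCCAC), each on either strand.
Hmgcs1, chr2:53382054-53382353, plus strand: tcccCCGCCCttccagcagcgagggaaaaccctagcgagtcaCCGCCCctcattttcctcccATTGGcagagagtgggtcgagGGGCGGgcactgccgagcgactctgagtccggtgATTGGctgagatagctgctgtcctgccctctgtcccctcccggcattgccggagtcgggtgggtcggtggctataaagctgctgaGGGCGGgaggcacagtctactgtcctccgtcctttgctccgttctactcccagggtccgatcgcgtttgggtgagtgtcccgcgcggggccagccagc
Msmo1, chr16:29746863-29747162, plus strand: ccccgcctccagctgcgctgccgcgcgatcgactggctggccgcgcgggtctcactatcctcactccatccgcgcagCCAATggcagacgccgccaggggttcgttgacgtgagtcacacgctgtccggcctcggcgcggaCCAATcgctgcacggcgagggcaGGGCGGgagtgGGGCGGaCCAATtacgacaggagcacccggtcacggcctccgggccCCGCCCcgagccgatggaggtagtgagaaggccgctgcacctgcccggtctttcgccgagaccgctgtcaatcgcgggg
Insig1, chr4:8057720-8058019, minus strand: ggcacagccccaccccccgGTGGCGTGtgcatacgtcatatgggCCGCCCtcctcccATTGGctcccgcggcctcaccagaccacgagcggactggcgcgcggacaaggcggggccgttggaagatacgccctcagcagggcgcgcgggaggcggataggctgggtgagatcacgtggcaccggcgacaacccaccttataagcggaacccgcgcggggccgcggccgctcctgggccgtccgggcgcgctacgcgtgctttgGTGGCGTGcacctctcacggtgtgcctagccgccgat
Srebf1, chr10:45518961-45519260, minus strand: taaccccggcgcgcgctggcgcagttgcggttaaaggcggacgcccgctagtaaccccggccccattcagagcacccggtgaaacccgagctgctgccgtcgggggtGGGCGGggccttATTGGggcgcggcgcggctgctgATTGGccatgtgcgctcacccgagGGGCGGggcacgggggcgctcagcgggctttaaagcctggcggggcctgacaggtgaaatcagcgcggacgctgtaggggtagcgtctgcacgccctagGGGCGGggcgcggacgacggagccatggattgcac
Srebf1, chr10:45529115-45529414, minus strand: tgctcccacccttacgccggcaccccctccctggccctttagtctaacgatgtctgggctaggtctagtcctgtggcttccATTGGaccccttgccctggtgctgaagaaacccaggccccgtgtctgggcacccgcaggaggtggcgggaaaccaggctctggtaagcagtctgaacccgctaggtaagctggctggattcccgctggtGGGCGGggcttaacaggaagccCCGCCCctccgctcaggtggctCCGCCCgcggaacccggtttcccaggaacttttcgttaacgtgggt
Scd, chr1:253231682-253231981, minus strand: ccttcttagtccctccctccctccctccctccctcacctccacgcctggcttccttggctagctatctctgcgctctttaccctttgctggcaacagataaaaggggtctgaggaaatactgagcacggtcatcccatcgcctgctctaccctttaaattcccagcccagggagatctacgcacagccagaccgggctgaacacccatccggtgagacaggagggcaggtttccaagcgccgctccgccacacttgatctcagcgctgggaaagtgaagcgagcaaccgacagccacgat

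Among the 22 windows, ATTGG was present in 17 (77.3%), against 37.5% of all 33469 windows of the same length, and GGGCGG in 18 (81.8%), against 33.1%. The E-box CACGTG was in 3 windows (13.6%), against 6.42% of all. The sterol regulatory element in the form TCACNCCAC was in 0 of the 22, against 1.12% of all, and the shorter CACNCCAC, added after that, was in 3 (13.6%; Acat2, Ebp and Insig1), against 5.8%. Of the windows printed here, that of Scd held no match of the 3 marked motifs, and that of Insig1 held all 3. These matches describe letters in a window and were not tested.

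Library totals, in mega-counts (M), spanned 22.03 to 77.6 M with their median at 39.97 M. The endothelial markers Pecam1, Cdh5, Kdr, Tek and Emcn summed to 5509.9 to 7363 CPM in the 15 sham and to 4128 to 5776 CPM in the 15 Glenn libraries. Transcripts of type 2 alveolar cells were present too, since the 8 markers Sftpc, Sftpb, Sftpa1, Sftpd, Abca3, Slc34a2, Napsa and Lamp3 summed to 37784 to 64663 CPM in the 15 sham libraries (median 45876) and to 26684 to 60802 CPM in the 15 Glenn libraries (median 32494). CPM are counts per 1 M counts after TMM scaling. In bulk samples, fewer cells of a type and less RNA per cell cannot be told apart. Library names fall into 2 number ranges (22 and 8 libraries), which the fits carry as a term, and both control-diet groups and the sham excess group lie in 1 of them.

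Comparing Glenn with sham surgery, averaged over diets, asks what the operation changed. Scd, the desaturase that makes oleate, Acaca, which makes malonyl-CoA, Srebf1 and the methylsterol monooxygenase Msmo1 were lower after Glenn surgery. Elovl6, which lengthens palmitate, was higher. These 5 of 29 rows (1 higher, 4 lower) passed an adjusted p of 0.05 in the edgeR quasi-likelihood test, against 48.2% of all genes tested (23.4% higher, 24.7% lower). By role, 1 of 19 rows of sterol synthesis was called, 1 of 6 regulators and carriers, and 3 of 4 enzymes of fatty acid synthesis. The median log2 change was -0.12 over the 29 rows and -0.01 over all genes, and the median size of a change, whatever its sign, was 0.14 and 0.22. In 27 of 29 rows the 95% interval of the change lay between -1 and 1, the exceptions being Scd and Elovl6, as it did in 12426 of 16171 genes. In 0 of 29 rows did all 15 Glenn libraries lie on one side of all 15 sham libraries, against 5.85% of all genes.

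**Figure D1:**
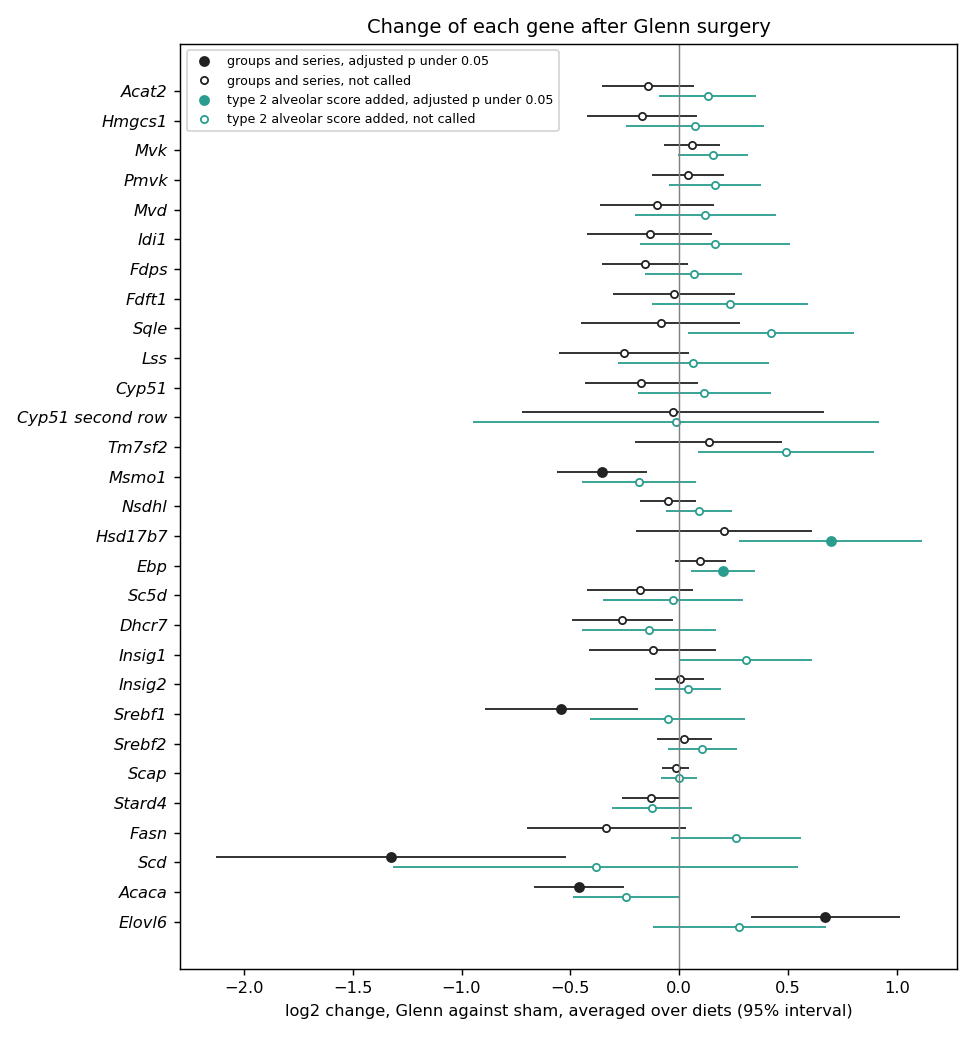
Log2 change after Glenn surgery, averaged over diets, for each of the 29 rows (x axis, with the 95% interval), from the fit with groups and library series (black) and with the type 2 alveolar score added (green); filled points passed an adjusted p of 0.05. Black filled points are Msmo1, Srebf1, Scd, Acaca and Elovl6, and green filled points are Hsd17b7 and Ebp.

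Of the enzymes of fatty acid synthesis, Scd, Acaca and Elovl6 changed. Scd (ENSRNOG00000013552) stood at 793, 358, 454, 1098 and 594 CPM in the 5 sham and at 114, 286, 463, 221 and 489.7 CPM in the 5 Glenn libraries on the control diet. Scd on the deficient diet read 422, 673, 585, 211 and 79.7 CPM in sham libraries, against 104, 189, 130.4, 150.1 and 210.1 CPM in Glenn libraries. With excess vitamin A, Scd read 196, 223, 132, 341 and 1306 CPM in sham libraries, against 79.05, 65.6, 283, 342 and 122 CPM in Glenn libraries. Sham libraries were mostly the higher ones, but the groups overlapped on each diet, and sham excess replicate 5 stood far above the others. Scd fell from 498 ± 354 to 216 ± 133 CPM (SD, n = 15 per surgery), or -1.32 on the log2 scale (SE 0.39, with an adjusted p of 0.00685 in edgeR). Without sham excess replicate 5 the log2 change of Scd was -0.998 (adjusted p 0.0163 in edgeR).

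Acaca (ENSRNOG00000034013), acetyl-CoA carboxylase, read 33.5, 25.7, 27.5, 33.3 and 32.8 CPM in sham control and 26.2, 27.8, 27.7, 17.7 and 24.7 CPM in Glenn control libraries. Acaca under vitamin A deficiency was 31.99, 35.1, 28.5, 27.4 and 22.2 CPM in sham libraries, against 19.1, 21.2, 24.2, 18.6 and 19.8 CPM in Glenn libraries. Acaca under vitamin A excess was 15.5, 26.1, 30.3, 32.7 and 35.2 CPM in sham libraries, against 15.7, 15.9, 21.7, 22.9 and 15.04 CPM in Glenn libraries. The sham excess group held 1 low library, replicate 1, amid the Glenn values, and the groups overlapped on all 3 diets. Acaca fell from 29.2 ± 5.38 to 21.2 ± 4.28 CPM (SD, n = 15 per surgery), or -0.46 on the log2 scale (SE 0.10, with an adjusted p of 0.000373 in edgeR).

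Elovl6 (ENSRNOG00000048949) moved the other way. Elovl6 read 3.33, 2.72, 3.57, 1.97 and 3.36 CPM in sham control and 3.79, 2.27, 2.53, 4.73 and 1.76 CPM in Glenn control libraries. Elovl6 under vitamin A deficiency was 2.86, 0.960, 2.70, 2.02 and 3.19 CPM in sham libraries, against 5.43, 5.78, 4.27, 3.21 and 3.24 CPM in Glenn libraries. Elovl6 under vitamin A excess was 3.56, 1.59, 1.96, 2.45 and 3.07 CPM in sham libraries, against 6.32, 4.47, 4.29, 5.60 and 6.13 CPM in Glenn libraries. All Glenn libraries lay above all sham libraries on the deficient and excess diets, and the groups overlapped on the control diet. Elovl6 rose from 2.62 ± 0.780 to 4.25 ± 1.44 CPM (SD, n = 15 per surgery), or 0.67 on the log2 scale (SE 0.17, with an adjusted p of 0.00133 in edgeR), on 33 to 304 counts per library.

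Fasn, the fatty acid synthase, did not pass the test. Fasn read 519, 331, 369, 439 and 419.9 CPM in sham control and 233, 419, 549, 268 and 489 CPM in Glenn control libraries. Fasn under vitamin A deficiency was 363, 576, 359, 283 and 222 CPM in sham libraries, against 263, 213, 259, 274 and 316 CPM in Glenn libraries. Fasn under vitamin A excess was 157, 216, 312, 387 and 565 CPM in sham libraries, against 170.0, 227, 282, 325 and 165 CPM in Glenn libraries. Values of the 2 operations overlapped on every diet, and on the control diet the highest and the lowest value were both in Glenn libraries. The log2 change of Fasn was -0.33 (95% interval -0.70 to 0.03, adjusted p 0.123 in edgeR).

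**Figure D2:**
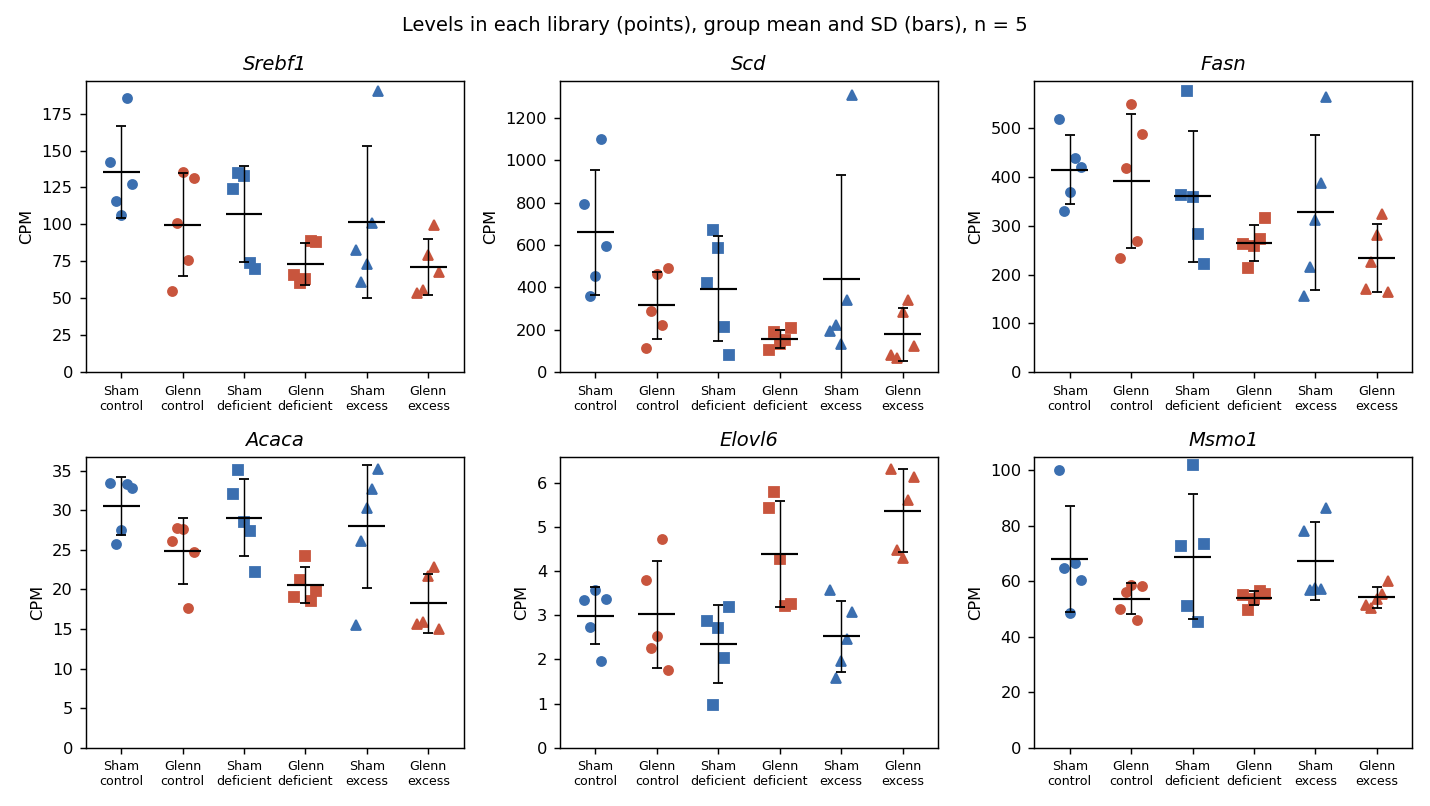
CPM (y axis, from 0) of Srebf1, Scd, Fasn, Acaca, Elovl6 and Msmo1 in every library of the 6 groups (x axis); points are libraries, black lines the group mean and SD (n = 5), and the SD bar of Scd in the sham excess group is cut at 0. Elovl6 lies at 0.960 to 3.57 CPM in the sham and at 1.76 to 6.32 CPM in the Glenn libraries, and Scd of 1 sham excess library stands at 1306 CPM.

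Among the regulators, Srebf1 (ENSRNOG00000003463) was called. Srebf1 read 142, 116, 106, 185 and 127 CPM in sham control and 54.6, 101, 135, 76.01 and 132 CPM in Glenn control libraries. Srebf1 under vitamin A deficiency was 124, 135, 133, 73.9 and 69.5 CPM in sham libraries, against 65.5, 60.5, 62.9, 88.5 and 88.2 CPM in Glenn libraries. Srebf1 under vitamin A excess was 82.9, 60.9, 73.3, 101 and 190.1 CPM in sham libraries, against 53.5, 55.9, 79.2, 99.7 and 68.001 CPM in Glenn libraries. The lowest value of each diet was in a Glenn library and the highest in a sham library, and the groups overlapped. Srebf1 fell from 115 ± 39.6 to 81.4 ± 26.3 CPM (SD, n = 15 per surgery), or -0.54 on the log2 scale (SE 0.17, with an adjusted p of 0.0104 in edgeR).

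Srebf2 (ENSRNOG00000007400) had near-equal means after the 2 operations. Srebf2 read 220.2, 173, 138, 161 and 168 CPM in sham control and 208, 194, 225, 185 and 173 CPM in Glenn control libraries. Srebf2 under vitamin A deficiency was 192, 199, 161, 149 and 157 CPM in sham libraries, against 190.2, 177, 177, 182 and 146 CPM in Glenn libraries. Srebf2 under vitamin A excess was 228, 166, 175, 196 and 224 CPM in sham libraries, against 174, 161, 165, 174 and 181 CPM in Glenn libraries. The groups overlapped on every diet. Srebf2 stood at 180.5 ± 27.99 CPM in sham and 181 ± 19.05 CPM in Glenn libraries (SD, n = 15 per surgery), with a 95% interval of the log2 change of -0.10 to 0.15.

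Insig1, an anchor of SREBP and itself an SREBP target, varied widely after sham surgery. Insig1 read 324, 202, 118, 247 and 180.1 CPM in sham control and 154, 217, 239.5, 165 and 253 CPM in Glenn control libraries. Insig1 under vitamin A deficiency was 227, 174, 308, 109 and 154 CPM in sham libraries, against 185, 163, 167, 165 and 191 CPM in Glenn libraries. Insig1 under vitamin A excess was 182, 132, 188, 151 and 279 CPM in sham libraries, against 144, 162, 200.4, 190.2 and 167 CPM in Glenn libraries. The Glenn values lay inside the sham range on each diet, and the log2 change was -0.12 (95% interval -0.41 to 0.17, adjusted p 0.508 in edgeR).

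Its relative Insig2 kept a narrow range. Insig2 read 10.7, 12.8, 10.9, 11.5 and 9.51 CPM in sham control and 10.2, 13.1, 12.6, 11.9 and 11.4 CPM in Glenn control libraries. Insig2 under vitamin A deficiency was 10.6, 12.97, 13.6, 11.9 and 10.95 CPM in sham libraries, against 10.5, 11.8, 11.3, 11.4 and 10.7 CPM in Glenn libraries. Insig2 under vitamin A excess was 10.96, 13.3, 12.001, 10.4 and 11.7 CPM in sham libraries, against 12.2, 11.9, 11.999, 10.9 and 12.1 CPM in Glenn libraries. The groups overlapped on each diet, with a 95% interval of the log2 change of -0.11 to 0.12. Scap, which carries SREBP to the Golgi, spanned 59.9 to 77.4 CPM over all libraries, with an interval of -0.08 to 0.05. Stard4, a cytosolic cholesterol carrier, was at 38.4 ± 4.84 CPM in sham and 34.9 ± 4.73 CPM in Glenn libraries (SD, n = 15 per surgery; log2 change -0.13, adjusted p 0.108 in edgeR).

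In sterol synthesis, Msmo1 (ENSRNOG00000032297) was the called row. Msmo1 ran from 45.1 to 102 CPM with a median of 64.7 CPM in the 15 sham libraries and from 45.9 to 60.1 CPM with a median of 54.9 CPM in the 15 Glenn libraries. The lowest values were alike, and 9 of the 15 sham libraries had more than the highest Glenn library. Msmo1 fell from 67.98 ± 17.5 to 53.9 ± 3.90 CPM (SD, n = 15 per surgery), or -0.36 on the log2 scale (SE 0.10, with an adjusted p of 0.00444 in edgeR). Dhcr7, the last reductase of the pathway, was at -0.26 (95% interval -0.49 to -0.03, adjusted p 0.058 in edgeR), and Lss, which closes the sterol rings, at -0.26 (adjusted p 0.153 in edgeR).

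The early enzymes did not pass the test. HMG-CoA synthase, Hmgcs1, was at 75.05 ± 23.2 CPM in sham and 66.9 ± 5.85 CPM in Glenn libraries (SD, n = 15 per surgery; log2 change -0.17, 95% interval -0.42 to 0.08). The mevalonate enzymes Mvk (0.06), Pmvk (0.04) and Mvd (-0.10), the isomerase Idi1 (-0.14) and the farnesyl diphosphate synthase Fdps (-0.16) had small fitted log2 changes. So had Acat2 (-0.14), which joins acetyl-CoA units, the squalene synthase Fdft1 (-0.02) and the squalene epoxidase Sqle (-0.09). Of the later enzymes, Cyp51 (-0.17; second row -0.03), Sc5d (-0.18) and Nsdhl (-0.05) were below 0 and Tm7sf2 (0.13), Hsd17b7 (0.21) and Ebp (0.10) above 0. Over the 19 rows, 14 log2 changes were negative and 5 positive, from -0.36 to 0.21. All 19 intervals lay between -1 and 1, and that of the second Cyp51 row was the widest, at -0.72 to 0.67 on at most 34 counts per library.

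By diet, 0 of 29 rows were called on the control diet, against 24.9% of all genes, 2 on the deficient diet, against 27.4%, and 2 on the excess diet, against 21.9%. Each time these were Acaca and Elovl6. On the control diet 1 row had an unadjusted p under 0.05 in edgeR, against 35.3% of all genes. Acaca was at -0.30 (adjusted p 0.208 in edgeR) on the control, -0.51 (adjusted p 0.0258 in edgeR) on the deficient and -0.57 (adjusted p 0.0336 in edgeR) on the excess diet. Elovl6 was at 0.01 (adjusted p 0.985 in edgeR), 0.87 (adjusted p 0.0299 in edgeR) and 1.13 (adjusted p 0.0104 in edgeR) on the same 3 diets. The surgery by diet interaction called 0 rows, against 0.00618% of all genes (1 gene), with 2 rows (5.72% of all genes) at an unadjusted p under 0.05 in edgeR, of which Elovl6 was at 0.028 with an adjusted p of 0.798. All 5 Glenn libraries were beyond all 5 sham libraries for Elovl6 on the deficient and excess diets (19.6% and 16.4% of all genes), and for Scap, lower, on the control diet (17.2% of all genes; log2 change -0.12, adjusted p 0.0959 in edgeR).

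These calls in single diets rest on few libraries, and the values in parentheses here are adjusted p in edgeR after 1 library was left out. On the deficient diet, neither gene was called without sham replicate 2 (0.0976 for Acaca and 0.143 for Elovl6, whose log2 change was then 0.58) or without Glenn replicate 1 (0.0552 and 0.0582). Acaca was also lost there without sham replicate 1 (0.0698) or Glenn replicates 4 (0.0675) or 5 (0.0521), and Elovl6 without sham replicate 4 (0.057) or Glenn replicate 2 (0.0691). On the excess diet, Acaca was lost without sham replicates 3 (0.0641), 4 (0.0788) or 5 (0.0935) or Glenn replicates 1 (0.143), 2 (0.147) or 5 (0.06). Elovl6 was called on the excess diet whichever 1 library was left out. On the control diet 1 row, Srebf2, was called without sham replicate 1.

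Comparisons of diets within a surgery called 0 of 29 rows in each of 6 cases, 3 after sham and 3 after Glenn surgery. Of all genes, 0%, 0.241% and 0.0124% were called after sham surgery (deficient against control, excess against control and excess against deficient) and 0.00618%, 1.47% and 0% after Glenn surgery in the same order. At an unadjusted p under 0.05 in edgeR, the members counted 0, 1 and 0 among sham groups, against 5.22%, 11.1% and 5.28% of all genes. They counted 1, 3 and 0 among Glenn groups, against 9.88%, 13.9% and 5.18% of all genes, so the 3 (10.3% of 29 rows) are below the share of all genes. These 3, from the excess against the control diet after Glenn surgery, were Elovl6 (0.88, SE 0.32), Fasn (-0.73, SE 0.34) and Acaca (-0.40, SE 0.19) on the log2 scale, with edgeR adjusted p from 0.168 to 0.355. Comparisons within a surgery share libraries with each other.

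The lists of related genes follow, over the same comparison averaged over diets. Of 12 further genes of sterol and isoprenoid synthesis, 7 were called, all lower, against the 48.2% of all genes given above. They included Faxdc2 (log2 change -0.54), Dhdds (-0.22), a dolichol synthase subunit, and Coq2 (-0.18) of ubiquinone synthesis. Of 10 genes of SREBP processing and INSIG turnover, 5 were called, against the same 48.2% of all genes. The ubiquitin ligases Rnf139 (-0.25), Syvn1 (-0.25) and Rnf145 (-0.27) were lower and Ubxn4 (0.23) higher. The fifth, named after its values were seen, was the SREBP protease Mbtps2 (-0.25).

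Of 13 tested genes of cholesterol uptake and transport, 7 were called, 5 of them higher, against 48.2% of all genes (23.4% higher, 24.7% lower). Scarb1, the HDL receptor, rose from 189 ± 21.7 to 613 ± 103 CPM (SD, n = 15 per surgery), or 1.70 on the log2 scale (SE 0.08, with an adjusted p of 9.19e-17 in edgeR). The sterol transfer genes Gramd1b (1.30) and Gramd1a (0.29) rose too, while Npc1 (-0.23), which exports cholesterol from lysosomes, fell. Of 12 genes of efflux, LXR signalling and storage, 3 were called higher and 3 lower, against the same shares of all genes. Apoe, a lipid carrier, rose from 112 ± 22.3 to 650.5 ± 169.6 CPM (SD, n = 15 per surgery; log2 change 2.55, SE 0.12, adjusted p 3.11e-16 in edgeR), Ch25h, which makes 25-hydroxycholesterol, by 1.47 and the exporter Abca1 by 0.75 on the log2 scale. The sterol 27-hydroxylase Cyp27a1 (-0.33), Nceh1 (-0.18) and Nr1h2 (-0.11) were lower.

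Of 25 tested genes of other fatty acid and lipid metabolism, 15 were called, 12 of them lower, against 48.2% of all genes (24.7% lower). The list holds lipases such as Mgll and Pnpla2 beside genes of synthesis, so its counts are not of synthesis alone. Fads1, a desaturase of polyunsaturated fatty acids, fell from 285 ± 36.9 to 105 ± 22.1 CPM (SD, n = 15 per surgery), or -1.43 on the log2 scale (SE 0.09, with an adjusted p of 1.95e-13 in edgeR). Acacb (-0.97), the mitochondrial acetyl-CoA carboxylase, and the monoglyceride lipase Mgll (-0.55) were lower as well. Pparg (0.56), Pnpla2 (0.14) and Dgat1 (0.12) were the 3 higher ones. All Glenn libraries lay beyond all sham libraries for Fads1, Mgll, Scarb1, Gramd1b, Apoe, Ch25h, Faxdc2, Dhdds and Rnf139, as for 5.85% of all genes.

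The type 2 alveolar markers differed between the operations too. All 8 were called lower after Glenn surgery averaged over diets, against 24.7% of all genes, from -0.33 for Sftpa1 to -0.57 for Sftpb on the log2 scale. Their score, the mean log2(CPM + 1) of the 8, was 11.13 ± 0.241 in the sham and 10.69 ± 0.345 in the Glenn libraries (SD, n = 15 per surgery), a difference of -0.45 (permutation within diets, 100000 resamples, two-sided p 0.00047). By diet, the score difference was -0.17 on the control diet (exact permutation p 0.484), -0.61 on the deficient diet (exact permutation p 0.00794, the smallest that 5 against 5 can give) and -0.56 on the excess diet (exact permutation p 0.0238). Adjusted over the 99 score tests made, these exact permutation values were 0.786, 0.112 and 0.181.

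Within groups, some of the synthesis genes followed that score. In a fit with groups, series and the score, 6 of 29 rows had a called slope, all positive, against 4.08% of all genes (3.15% positive). They were Fasn (slope 1.35, SE 0.21, adjusted p 0.000152 in edgeR), Srebf1 (1.10, SE 0.25, adjusted p 0.00989 in edgeR), Insig1 (0.92, SE 0.21, adjusted p 0.0104 in edgeR), Sqle (1.13), Hsd17b7 (1.21), a sterol reductase, and Acat2 (0.63). A slope of 1 means that the gene and the markers moved by the same factor. Slopes were positive in 28 of 29 rows, with a median of 0.50, against -0.03 over all genes. Elovl6 had the negative one (-0.85, SE 0.28, adjusted p 0.0932 in edgeR), and the slope of Scd was 1.95 (SE 0.63, adjusted p 0.0917 in edgeR).

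**Figure D3:**
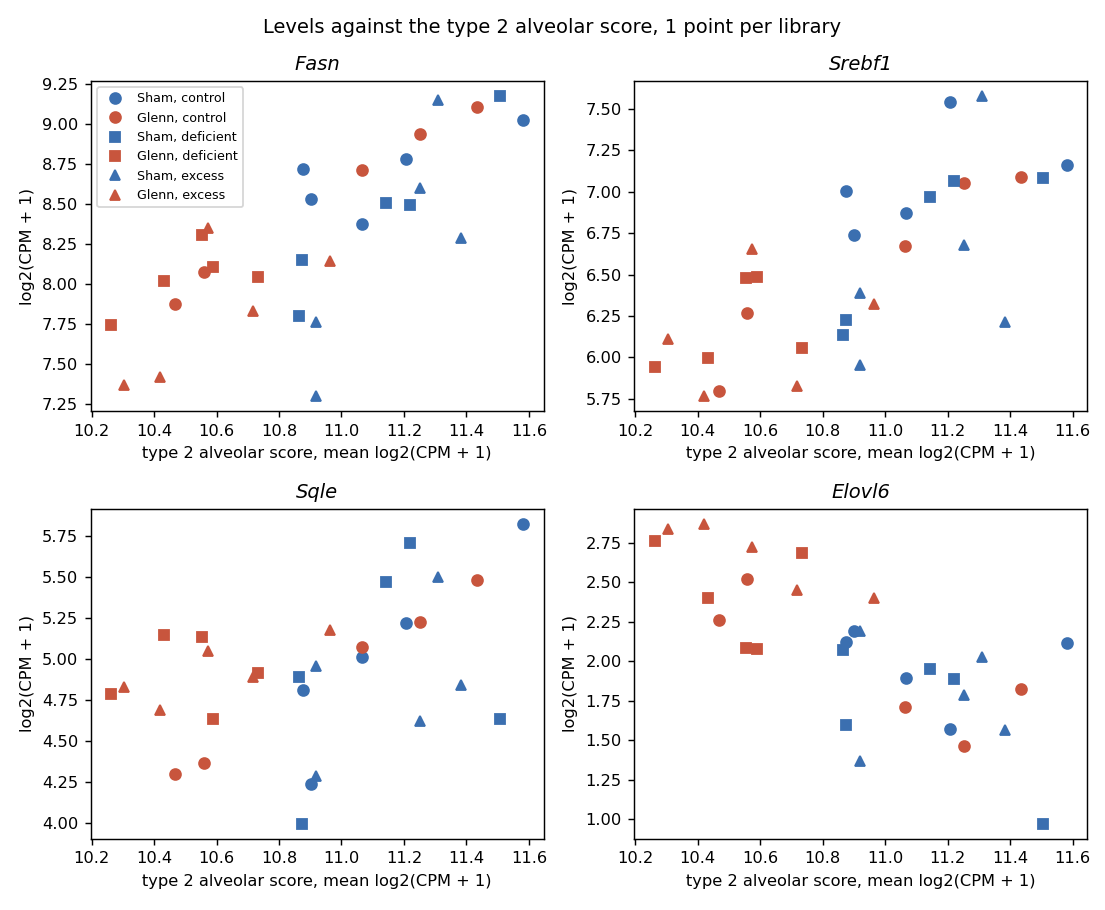
Log2(CPM + 1) of Fasn, Srebf1, Sqle and Elovl6 (y axis) against the type 2 alveolar score (x axis, mean log2(CPM + 1) of 8 markers), 1 point per library, with sham in blue, Glenn in red and diets by symbol. Fasn, Srebf1 and Sqle are higher where the score is higher (slopes 1.35, 1.10 and 1.13 within groups), and Elovl6 lower (-0.85).

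The slope was looked at in each surgery apart. In the 15 Glenn libraries alone, 5 rows were called (Sqle, Hsd17b7, Insig1, Srebf1 and Fasn), against 1.17% of all genes, and in the 15 sham libraries alone 0, against 1.3%. At an unadjusted p under 0.05 in edgeR there were 12 rows in the sham libraries, against 9.95% of all genes, and 13 in the Glenn libraries, against 10.7%. The fitted slope of Fasn was 1.43 (SE 0.43) in sham and 1.17 (SE 0.18) in Glenn libraries, and that of Insig1 1.42 (SE 0.47) and 0.64 (SE 0.11). A difference between the 2 was not tested. Without sham control replicate 1, Glenn control replicate 1 or Glenn control replicate 3, 4 rows were called. Fasn, Insig1 and Srebf1 were among them in each of the 3 fits.

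With the score in the fit, the Glenn against sham comparison averaged over diets called 2 of 29 rows, against 38.5% of all genes, and none of the former 5. Hsd17b7 (0.70, SE 0.21, adjusted p 0.00776 in edgeR) and Ebp (0.20, SE 0.07, adjusted p 0.0251 in edgeR), a sterol isomerase, were higher. By diet, the fit with the score called 0 rows on the control diet (26.2% of all genes), 1 on the deficient diet (21.9%), Hsd17b7 at 1.16, and 0 on the excess diet (19%). At an unadjusted p under 0.05 in edgeR, 3, 2 and 1 rows were counted on these diets, against 36.3%, 32.6% and 30.4% of all genes. Averaged over diets, the log2 changes of the former 5 became -0.19 for Msmo1, -0.05 for Srebf1, -0.38 for Scd, -0.24 for Acaca and 0.28 for Elovl6. In this fit 12 rows changed sign from negative to positive, Hmgcs1, Sqle, Insig1 and Fasn among them. None of the 12 was called with or without the score. Their 95% intervals held 0 in both fits, except that of Sqle with the score (0.04 to 0.80). Large changes among the related genes remained, with 1.49 for Scarb1, 2.38 for Apoe and -1.25 for Fads1 on the log2 scale. Some smaller ones did not. Npc1 (-0.12, adjusted p 0.171 in edgeR), Nceh1 (0.02, adjusted p 0.861) and Dgat1 (0.10, adjusted p 0.196) were no longer called. Soat1 (0.47), Dgat2 (0.44), Me1 (0.41) and Lpin1 (0.42), not called higher before, were called higher with the score. How much of the members' change after surgery goes with type 2 alveolar RNA was not tested beyond this fit.

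Slopes on 10 further marker scores were fitted in the same way. Of scores for macrophage, leukocyte, type 1 alveolar, fibroblast, lipofibroblast, mural, endothelial, airway, mesothelial and erythroid markers, that of macrophages had called slopes, 4 of 29 rows and all negative, against 0.241% of all genes (0.0495% negative). These were Mvd (-1.30), Fdps (-0.95), Msmo1 (-0.94) and Nsdhl (-0.61), all of sterol synthesis. At an unadjusted p under 0.05 in edgeR, 18 of 29 rows (62.1%) were counted for the macrophage score, against 11.5% of all genes. For the type 2 alveolar score 19 rows (65.5%) were counted, against 15.6% of all genes. Macrophage markers summed to 20.2 to 50.7 CPM in the sham and 28.6 to 66.3 CPM in the Glenn libraries, and Marco of alveolar macrophages was at 0 in all 15 sham libraries. With the other 9 scores, 0 rows were called (edgeR; 0 to 7 of 29 rows at an unadjusted p under 0.05, against 4.68% to 16.1% of all genes). The 7 (24.1%) were counted for the type 1 alveolar score, against 11.1% of all genes, and for the mesothelial score, against 14.7%. At the adjusted threshold, 2.54% of all genes were called for the endothelial, 1.27% for the mesothelial, 0.822% for the fibroblast, 0.816% for the type 1 alveolar, 0.798% for the mural, 0.625% for the leukocyte, 0.254% for the lipofibroblast, 0.223% for the airway and 0.0186% for the erythroid score. Averaged over diets, Glenn surgery moved other lists as well, with 23.4% of all genes called higher and 24.7% lower. All 5 mural and 5 fibroblast markers were called higher, 4 of 5 type 1 alveolar markers higher and 1 lower, and 3 of 5 endothelial markers lower and 1 higher. Of the lipofibroblast markers 3 were higher and 1 lower, of the macrophage markers 2 higher and 1 lower of 4, of the airway markers 1 of 4 higher and of the erythroid markers 1 of 1 higher, with 0 of 3 leukocyte and 0 of 3 mesothelial markers called (edgeR; 0 at an unadjusted p under 0.05). Mural markers summed to 95.4 to 169 CPM in sham and 206 to 725 CPM in Glenn libraries, and type 1 alveolar markers to 574 to 1005 CPM and 671 to 1855 CPM. The part of these cell types in the members' changes was not tested.

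Levels of sterol enzymes also varied among the libraries of a group. Hmgcs1 read 115, 68.3, 49.8, 66.4 and 52.3 CPM in the sham control libraries, 99.7, 62.2, 115, 42.4 and 83.9 CPM in sham deficient and 71.7, 70.4, 67.1, 58.3 and 103 CPM in sham excess libraries. In the 15 Glenn libraries Hmgcs1 stayed between 56.6 and 76.0 CPM. Sham control replicate 1 was the highest of its group for 21 of 28 genes, sham deficient replicate 3 for 17 and sham excess replicate 5 for 21. Sham control replicate 3 and sham deficient replicate 4 were the lowest for 17 and 15. The same counts over all genes are not given here, so these do not set the members apart from other genes. Sqle read 55.6, 31.3, 17.9, 36.1 and 27.1 CPM in the sham control and 18.7, 32.7, 43.6, 19.6 and 36.4 CPM in the Glenn control libraries.

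**Figure D4:**
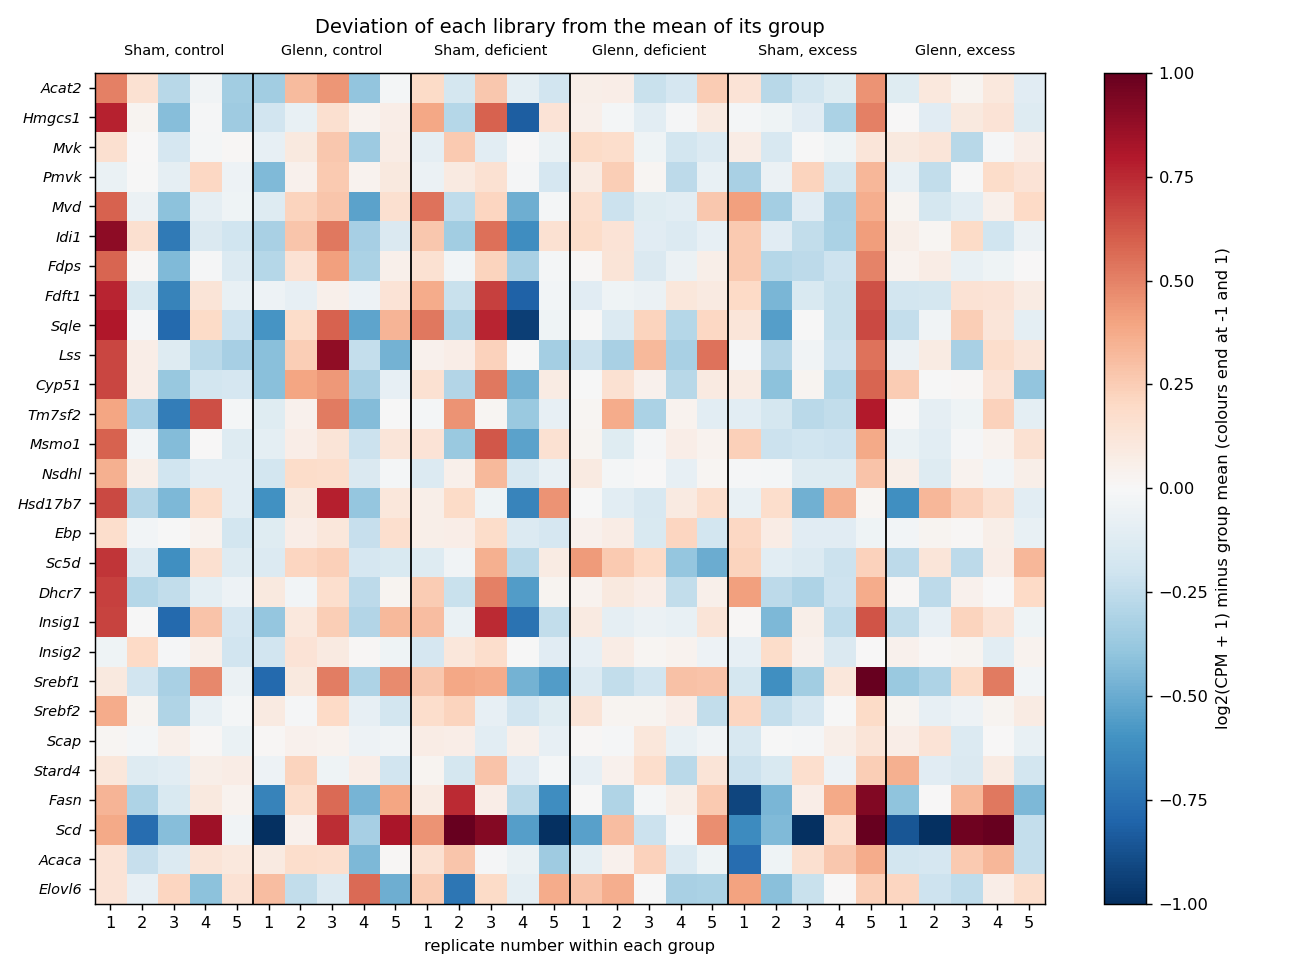
Deviation of each library from the mean of its group in log2(CPM + 1) (colour, ending at -1 and 1) for the 28 genes (rows, first Cyp51 row) and the 30 libraries (columns, by group and replicate number). Sham control replicate 1, sham deficient replicate 3 and sham excess replicate 5 are red in most rows, and some deviations of Scd lie beyond the colour scale.

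In a fit that held the log2 level of Hmgcs1 beside the groups and the series, a test chosen after the data were seen, 9 of the 28 other rows had a called slope, all positive. Of all 16170 other genes, 21 were called, so the 9 members were joined by 12 further genes, and 0.136% of all 16171 genes were called when Hmgcs1 is counted. The 9 were Fdft1 (1.00, SE 0.10, adjusted p 6.89e-07 in edgeR), Msmo1 (0.74, SE 0.08, adjusted p 1.28e-06 in edgeR), Insig1 (0.99), Idi1 (0.97), Sqle (1.22), Cyp51 (0.81), Dhcr7 (0.72), Fdps (0.59) and Mvd (0.76). Among the 12 further genes was Aacs (0.76), which activates acetoacetate. Of the 4 fatty acid enzymes 0 were called, with 1.26 (SE 0.55) for Scd and 0.41 (SE 0.27) for Fasn. The unadjusted p in edgeR was 0.0306 for Scd and 0.14 for Fasn. With the type 2 alveolar score in the same fit, 7 of 28 rows were called, against 0.0866% of all genes, Fdps and Mvd no longer being among them. Without sham control replicate 1, 6 of the 9 were called, Dhcr7, Fdps and Mvd being lost.

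**Figure D5:**
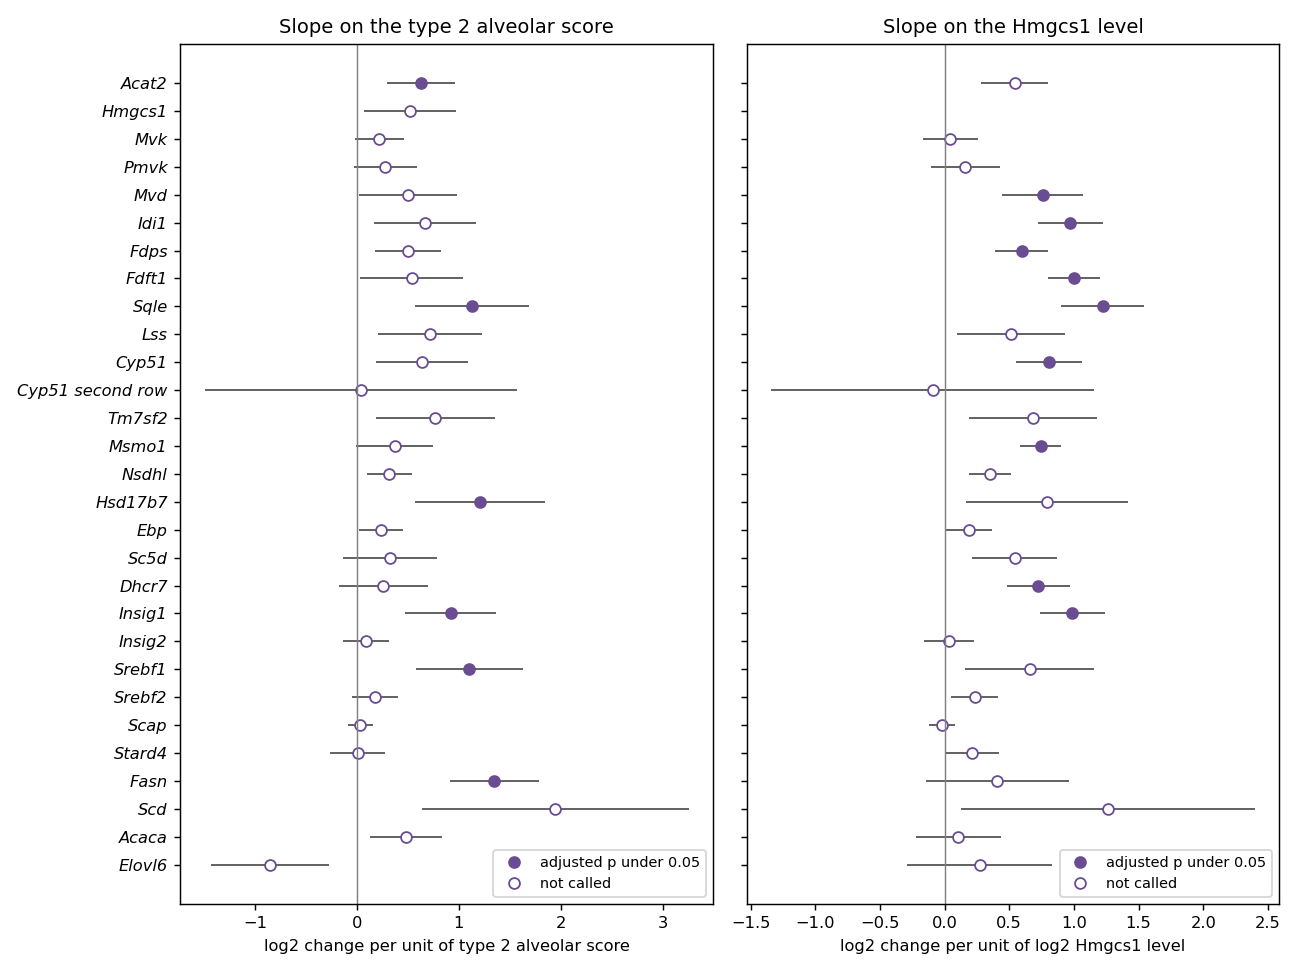
Fitted slope within groups of each row (x axis, log2 change per unit with its 95% interval) on the type 2 alveolar score (left) and on the log2 level of Hmgcs1 (right, Hmgcs1 left out); filled points passed an adjusted p of 0.05. On the left 6 rows are filled, Fasn among them, and on the right 9 rows, 8 of them enzymes of sterol synthesis and the other Insig1.

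Each surgery was then taken apart. In the 15 sham libraries alone 8 of the 28 other rows had a called slope on Hmgcs1 (against 0.0977% of all genes), and in the 15 Glenn libraries alone 0 (against 0.00637%, 1 gene). At an unadjusted p under 0.05 in edgeR, 7 rows were counted in the Glenn libraries beside Hmgcs1 itself, 8 of 29 (27.6%) in all, against 8% of all genes. The 7 were Scd (slope 4.84, SE 1.30), Fasn (2.51, SE 0.76), Srebf1 (2.27, SE 0.62), Cyp51, Insig1, Sqle and Pmvk. Fdft1 (0.30, SE 0.26), Msmo1 (0.16, SE 0.31) and Dhcr7 (0.05, SE 0.47) were not among them. The slope of Hmgcs1 on its own level was not called in the Glenn libraries (adjusted p 0.319 in edgeR). A count of 0 called slopes there therefore does not show that slopes were absent. A difference between these slopes was not tested. The spread within groups, as an SD of log2(CPM + 1) pooled over the 3 groups of a surgery, was larger after sham than after Glenn surgery in 23 of 29 rows (79.3%), against 43.6% of all genes. For Hmgcs1 the SD was 0.460 in sham and 0.114 in Glenn libraries, for Fdft1 0.509 and 0.123, and for Msmo1 0.380 and 0.112. Mvk (0.127 and 0.194) and Lss (0.323 and 0.419) were among the 6 rows that went the other way. These SDs are given as a description, and their difference was not tested.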

How the data were processed

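RNA was measured by RNA-seq (SMART-Seq Ultra Low v4 kit) in 30 libraries, 6 groups of 5. The table holds estimated counts per gene, deposited by the authors; the submitters' processing notes name FastQC, Trim Galore, Picard, STAR and Salmon and the builds mRatBN7.2 and rn7, with no order or version. Of the values 13.6% were not whole, and all were rounded. Totals ran from 22.03 to 77.6 M per library, so precision is poorest for rows with few counts (1 to 34 in the second Cyp51 row).

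Counts were fitted in edgeR 4.0.16 (R 4.3.3; TMM scaling, at least 10 counts by filterByExpr, robust quasi-likelihood test) over all 30 libraries, with a mean per group and a term for the library series (22 or 8 libraries, by ranges of the library names). P-values were adjusted by Benjamini-Hochberg over the 16171 rows tested, of 30562, and a row was called at an adjusted p under 0.05. Intervals are at 95%. Slopes come from the same fit with a marker score, the mean log2(CPM + 1), or the log2 level of Hmgcs1 added. Scores were compared by permutation of libraries.

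Alternatives used limma 3.58.1 (voom), DESeq2 1.42.0, other scalings, filters, terms and subsets of libraries, among them 13 libraries with high and 17 with low RT1-CE16, a gene of the major histocompatibility complex, and a sex term inferred from Ddx3y. Scripts were tested on simulated data. Within-group pairs of libraries differed by more than sampling noise (chi-square per degree of freedom 20.5 to 122.3), so none was taken as a second deposit of another. This does not show that they came from separate animals. The members, and the lists beside them, were chosen with earlier results of these data known. All 28 members are named, and from each related list up to 3 higher and 3 lower genes with the smallest adjusted p. Per-library values are given for members called with an absolute log2 change of at least 0.5 or called on a diet, and for Srebf1, Srebf2, Insig1, Insig2, Fasn and Scd. Those of Hmgcs1 and Sqle were added after the data were seen. Some genes of the related lists are not reported here.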

Additional observations from a re-analysis of the deposited data

Results flagged for a closer look

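In 13 of 186 sets of 5 libraries (the 29 rows, the totals and the score in each group), the highest or lowest library stood apart, its gap to the nearest other library taking more than 0.71 of the group's range. Chance flags about 1 in 20 such sets, or 9.3 of 186.

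Sham control replicate 1 stood above its group for Hmgcs1 (115 against 49.8 to 68.3 CPM, a gap of 0.717 of the range), Mvd (14.5 against 6.73 to 8.94 CPM, 0.714) and Dhcr7 (29.2 against 14.5 to 17.1 CPM, 0.82). Sham excess replicate 5 stood above its group for Scd (1306 against 132 to 341 CPM, 0.822), Tm7sf2 (7.07 against 2.88 to 3.34 CPM, 0.892), Lss (30.5 against 16.6 to 20.4 CPM, 0.73) and Nsdhl (29.8 against 22.05 to 24.03 CPM, 0.744). These are the libraries that were highest of their group for 21 of 28 genes each, counts that have no share over all genes beside them.

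Glenn excess replicate 4 was highest for Tm7sf2 (4.20 against 3.12 to 3.41 CPM, 0.739) and lowest for Insig2 (10.9 against 11.9 to 12.2 CPM, 0.767). Glenn deficient replicate 4 was lowest for Dhcr7 (13.2 against 16.2 to 17.04 CPM, 0.794). Mvk was highest in sham deficient replicate 2 (13.2 against 10.03 to 10.9 CPM, 0.734), and Pmvk in sham control replicate 4 (15.04 against 12.04 to 12.8 CPM, 0.739). The total of Glenn control replicate 2 was 77.6 M against 38.2 to 42.0 M (0.904).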

How the results depend on the processing

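Averaged over diets, 5 rows were called, and 5 to 6 when 1 library was left out. The 5 named were called in all 30 such fits and in 11 of 13 other settings, the exceptions being the fits with cell scores. With the type 2 alveolar score 2 rows were called. Log2 changes below 0 then became positive, here with that score and with 3 scores (macrophage and lipofibroblast added) in turn: Acat2 0.13 and 0.13, Hmgcs1 0.0717 and 0.12, Mvd 0.12 and 0.17, Idi1 0.16 and 0.20, Fdps 0.0656 and 0.0808, Fdft1 0.23 and 0.31, Sqle 0.42 and 0.48, Lss 0.0654 and 0.0602, Cyp51 0.12 and 0.14, Nsdhl 0.0926 and 0.10, Insig1 0.31 and 0.36, and Fasn 0.26 and 0.27. With voom, Fdft1 (0.10), Sqle (0.0629), Insig1 (0.0185) and the second Cyp51 row (0.0456) turned positive. So did Fdft1 with an RT1-CE16 term (0.000769) and the second Cyp51 row with no series term (0.00771). Srebf2 was at -0.0433 in the larger library series and at -0.0798 in RT1-CE16-low libraries, where Scap was at 0.00711. Leaving out 1 library gave both signs for Fdft1 (-0.0973 to 0.0598), Sqle (-0.165 to 0.0183), the second Cyp51 row (-0.200 to 0.0827) and Insig2 (-0.0154 to 0.0223). The cause was not tested.

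Rows called on the deficient diet (2) numbered 1 in the larger series alone, in RT1-CE16-low or RT1-CE16-high libraries and with only the groups compared. They numbered 0 to 2 with 1 library left out. With the type 2 alveolar score neither Acaca (adjusted p 0.508 in edgeR) nor Elovl6 (adjusted p 0.431 in edgeR) was called there, and the 1 row called was Hsd17b7. Rows called on the excess diet (2) numbered 1 in the larger series alone, in RT1-CE16-low libraries and with only the groups compared. They numbered 0 with the score or with 3 scores, and 1 to 2 with 1 library left out. The control diet gave 0 to 1. Slopes called on the score (6) numbered 1 in RT1-CE16-low libraries, 10 with DESeq2, 0 in sham libraries alone and 4 to 8 with 1 library left out. Slopes called on Hmgcs1 (9) numbered 0 in RT1-CE16-low and in Glenn libraries alone, and 6 to 10 with 1 left out.

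With the replicate block, 6 rows were called averaged over diets (Dhcr7 added), 1 on the excess diet (Elovl6; Acaca had an adjusted p of 0.127), 7 slopes on the score and 6 on Hmgcs1, and Insig2 was at -0.00552. Deviations of same-numbered libraries correlated at -0.182 to 0.285 (median 0.0554, 25 of 75 pairs over 0.1), and those of different number had a median of -0.0163 (29 of 300 over 0.1). Of the 30 libraries 16 correlated best with their own number, a hint from the data and not the design. Pairs over 0.1 were a larger share of the same-numbered than of the different-numbered pairs, though not every same-numbered pair was over 0.1. The labels tie the numbers to no animal, batch or day, so the fits reported have no block. What libraries of the same number have in common was not tested.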
